A study of Homo sapiens with 6 samples.

Results

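The HOX genes are homeobox genes that stand in 4 clusters, HOXA, HOXB, HOXC and HOXD, and each gene has a number from 1 to 13, its paralog group, that gives its place in the cluster. The members described here are the protein-coding rows of the deposited count table whose symbol is HOX, a cluster letter and a number. They came to 39 of 58096 gene rows, with 11 in HOXA, 10 in HOXB, 9 in HOXC and 9 in HOXD. Expression was measured by poly(A) RNA sequencing of SH-SY5Y, a human neuroblastoma line that the labels call neuronal progenitor cells. All 6 libraries came from cells that received 2 ul of adenovirus for 48 h: 3 carrying GFP (group GFP) and 3 carrying PGC-1a (group PGC1A), the transcriptional coactivator encoded by PPARGC1A. The series asks what expressing PGC-1a does to gene expression in these cells, so each HOX gene was compared between PGC1A and GFP. The labels give no virus titre, the libraries analysed here include no uninfected cells, and no label names separate cultures, so the spread behind the p-values may be technical only.

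HOX proteins are transcription factors that bind DNA through a homeodomain, usually together with cofactors of the TALE class (PBX, MEIS and PKNOX proteins), and give cells their position along the head to tail axis. Within a cluster the genes lie in the order in which they are used: low numbers act towards the head, and high numbers towards the tail, in the limbs and in the genital tract. Polycomb complexes hold unused HOX genes silent, trithorax complexes keep used ones active, and retinoic acid is a classic inducer that acts first on the low-numbered end.

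The libraries held 24988743 to 31762496 counts assigned to genes, of which 1184, 1372 and 1498 fell on HOX genes in GFP, and 2410, 2269 and 2221 in PGC1A. PPARGC1A, the gene that the virus delivers, had 98, 131 and 135 counts in GFP and 109350, 104546 and 103737 in PGC1A, as the labels have it. Of 10 genes of noradrenergic neuroblastoma identity, 9 had counts in GFP, with DBH at 127 CPM (counts scaled by library size) and GATA2 at 235 CPM, while TH had no count in GFP and 21 counts over PGC1A. Most genes differed between the groups. Of 19343 genes tested, 40.9% were higher in PGC1A and 42.1% lower at an adjusted p under 0.05 (edgeR quasi-likelihood test, Benjamini-Hochberg adjustment over all genes tested), and in 83.6% the libraries of the groups did not overlap. The median log2 fold change over all genes tested was −0.03.

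HOX transcripts came almost wholly from HOXC and HOXD, and PGC1A libraries differed from GFP libraries in which end of those clusters they came from. In the GFP libraries, paralog groups 10 to 13 gave 3.12%, 2.84% and 3.67% of HOX counts. In the PGC1A libraries they gave 50.6%, 50.2% and 52.5%. HOXC12 and HOXD10 together stood for most of that signal. The summed level of all HOX genes went from 41.9 ± 0.43 CPM in GFP to 87.8 ± 2.05 CPM in PGC1A (SD, n = 3). In bulk RNA a change in the number of cells that express a gene and a change in RNA per cell cannot be told apart.

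**Figure D1:**
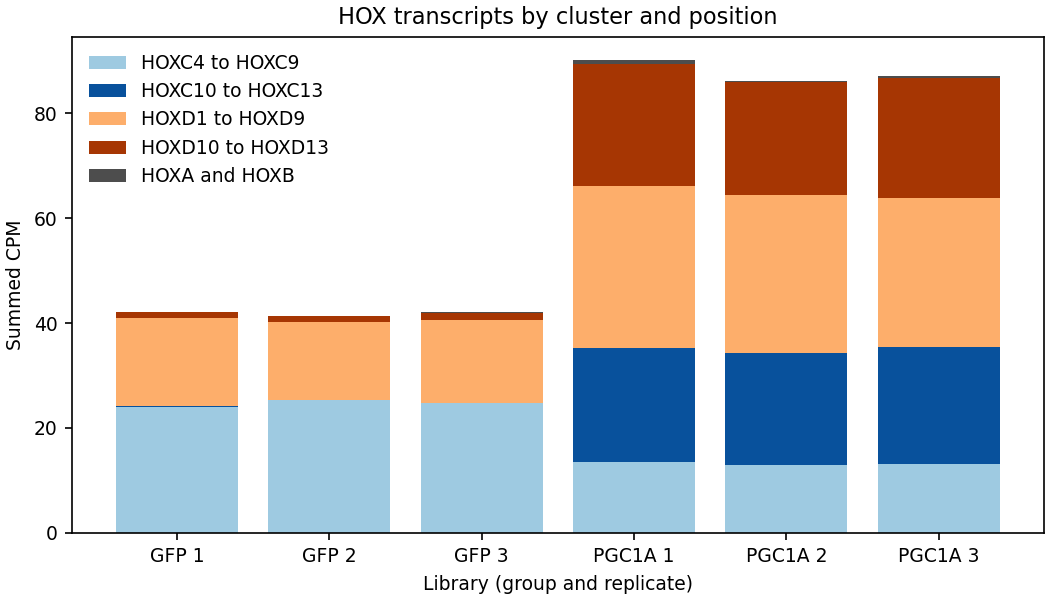
Summed TMM-normalised CPM of the HOX genes in each library (y axis), stacked by cluster and position. HOXC10 to HOXC13 and HOXD10 to HOXD13 were thin bands in the 3 GFP libraries (means 0.0781 and 1.22 CPM) and thick ones in the 3 PGC1A libraries (22.0 and 22.6 CPM).

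Of the 39 members, 15 had enough counts to be tested, and 9 of these were higher in PGC1A and 5 lower, with HOXD9 not passing. These shares stand beside the 40.9% and 42.1% of all genes tested. The groups did not overlap in 14 of the 15, against 83.6% of all genes tested. With 15 genes, none of these shares is a result about the HOX genes as a set. A gene silent in GFP could be tested only where it was high in PGC1A, so the 15 do not stand for all 39. The 24 untested members had at most 7 counts in any library, and 11 of them had no count in any library.

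**Figure D2:**
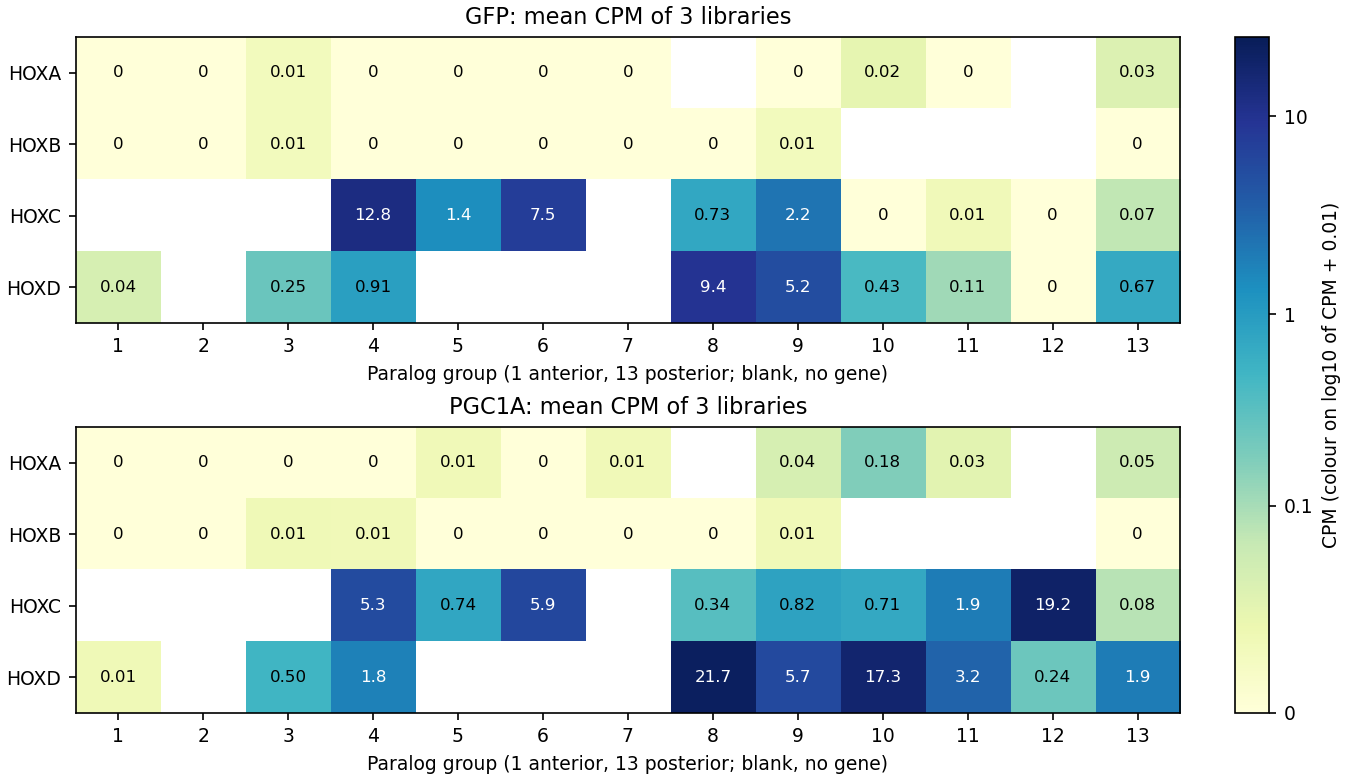
Mean CPM of the 39 HOX genes in the 3 GFP libraries (top) and the 3 PGC1A libraries (bottom), by cluster (rows) and paralog group (columns), with colour on a log10 scale. HOXA and HOXB were near 0 in both groups, and in PGC1A the strongest cells of the grid included HOXC12 at 19.2, HOXD10 at 17.3 and HOXD8 at 21.7 CPM.

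The HOXC cluster lies on the plus strand of chromosome 12 from 53938765 to 54056030 (GRCh38), 117 kb with HOXC13 first. It split by position. All 5 genes from HOXC4 to HOXC9 were lower in PGC1A and the 3 genes from HOXC10 to HOXC12 were higher. Of all genes tested, 42.1% were lower and 40.9% higher. HOXC10 to HOXC12 had 1 count in all over GFP, so they could be tested only where they were high in PGC1A. Such genes could not have been called lower. HOXC8 passed the filter on low counts only through GFP. The summed level of HOXC4 to HOXC9 went from 24.7 ± 0.705 to 13.1 ± 0.278 CPM, and that of HOXC10 to HOXC13 from 0.0781 ± 0.0911 to 22.0 ± 0.48 CPM (SD, n = 3).

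HOXC12 (ENSG00000123407.3, 53954834 to 53958956) belongs to the tail end of the cluster. It had no count in any GFP library and reached 506, 502 and 503 counts under PGC1A, a mean of 19.2 ± 0.423 CPM. With 3 counts allowed over the whole GFP group, PGC1A was at least 620-fold higher (adjusted p = 1.49e-38, edgeR). The groups were far apart and the 3 PGC1A libraries nearly equal. Of the 14329 protein-coding genes tested, 48 had no GFP count. The median level of those 14329 genes in PGC1A was 25.8 CPM.

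HOXC11 (ENSG00000123388.4), which in the mouse patterns the hindlimb and kidney with its paralogs, had 1, 0 and 0 counts in GFP and 57, 48 and 47 in PGC1A. The ratio of CPM was 187, with a 95% counting interval of 33.1 to 7444 (adjusted p = 8.28e-19, edgeR). HOXC10, which in the mouse marks lumbar motor neurons, had no GFP count and 22, 13 and 21 counts in PGC1A, at least 23.0-fold higher (adjusted p = 1.54e-11). The rise therefore covered 3 neighbours, and by level HOXC12 stood above the other two. HOXC13, a keratin regulator of hair and nail at the very end of the cluster, had 4, 0 and 2 counts in GFP and 1, 3 and 2 in PGC1A, and the groups overlapped.

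HOXC9 is the gene next to HOXC10. In the mouse it marks thoracic motor neurons, and in human neuroblastoma lines it is known to promote neuronal differentiation. It had 57, 79 and 82 counts in GFP and 19, 21 and 24 in PGC1A, and fell from 2.24 ± 0.184 to 0.816 ± 0.116 CPM, a log2 change of −1.46 (SE 0.19, adjusted p = 1.84e-09, edgeR). HOXC8, a thoracic and brachial gene in the mouse, had 22, 19 and 30 counts in GFP and 8, 7 and 12 in PGC1A (−1.08, SE 0.32, adjusted p = 0.00175). All GFP libraries lay above all PGC1A libraries for both genes, but the HOXC8 call did not hold with the DESeq2 Wald test (adjusted p = 0.0556).

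HOXC6, a brachial gene in the mouse spinal cord, fell least. It had 195, 270 and 267 counts in GFP and 166, 156 and 144 in PGC1A, or 6.95, 8.15 and 7.5 CPM against 6.21, 5.93 and 5.64 CPM, a log2 change of −0.35 (SE 0.09, adjusted p = 4.29e-04, edgeR). The groups did not overlap, but the change did not clear 1.5-fold in glmTreat (adjusted p = 1).

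HOXC4 (ENSG00000198353.7) acts in the neck and upper trunk and was the most abundant HOX gene of the GFP libraries per length. Its level was 12.8, 12.7 and 12.7 CPM in GFP and 5.53, 5.05 and 5.29 CPM in PGC1A (360, 421 and 454 counts against 148, 133 and 135). The log2 change was −1.27 (SE 0.08, adjusted p = 7.98e-20, edgeR), and the GFP libraries were nearly identical. HOXC5, its neighbour, had 37, 50 and 49 counts in GFP and 18, 22 and 18 in PGC1A (log2 fold change −0.92, SE 0.22, adjusted p = 1.68e-04), again without overlap. HOXC4, HOXC5 and HOXC6 have long transcripts that run over one another. Of their exon bases 17.8%, 59.9% and 15.7% are shared with another gene of the same strand, so reads there cannot be given to 1 gene with certainty.

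The HOXD cluster lies on the plus strand of chromosome 2 from 176092891 to 176190907 (GRCh38), 98.0 kb with HOXD13 first. Here 6 of the 7 genes tested were higher in PGC1A and 0 lower, beside 40.9% and 42.1% of all genes tested. HOXD3 and HOXD11 passed the filter on low counts only through PGC1A, and HOXD1 and HOXD12 were untested. The steepest rises were again at the tail end: the summed level of HOXD10 to HOXD13 went from 1.22 ± 0.191 to 22.6 ± 0.914 CPM (SD, n = 3), and that of HOXD1 to HOXD8 from 10.6 ± 0.575 to 24.0 ± 1.26 CPM.

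HOXD10 (ENSG00000128710.5, 176108790 to 176119942), a lumbar motor neuron and limb gene in the mouse, had 12, 13 and 17 counts in GFP and 470, 433 and 456 in PGC1A. It rose from 0.432 ± 0.0428 to 17.3 ± 0.75 CPM, 39.5-fold, or 5.30 on the log2 scale (SE 0.13, adjusted p = 2.39e-37, edgeR). HOXD11, which helps to shape the forearm in the mouse, had 1, 6 and 4 counts in GFP and 87, 78 and 83 in PGC1A, 26.8-fold higher (4.74, SE 0.27, adjusted p = 2.16e-21). For neither gene did the groups come near each other. The SE values were derived from the F values of the test and can be too small for changes this large. HOXD10 and HOXD11 overlap, and share 16.8% and 21.4% of their exon bases with a gene of the same strand.

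HOXD13 patterns the digits, and its mutations cause synpolydactyly in people. It had 17, 19 and 30 counts in GFP and 58, 52 and 42 in PGC1A, and rose from 0.674 ± 0.147 to 1.93 ± 0.264 CPM, a log2 change of 1.5 (SE 0.21, adjusted p = 9.72e-09, edgeR). HOXD12, between HOXD13 and HOXD11, had no GFP count and 7, 5 and 7 counts in PGC1A, at least 7.80-fold higher. It was too low for the main test and passed without the filter on low counts (adjusted p = 2.74e-06, edgeR) and with DESeq2 (adjusted p = 4.49e-04).

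HOXD9 and HOXD8, at the centre of the cluster, had the highest HOXD levels in GFP, though both lay under the median of 25.6 CPM of the protein-coding genes tested. HOXD8 (ENSG00000175879.8) had 293, 289 and 326 counts in GFP and 606, 584 and 518 in PGC1A, and rose from 9.44 ± 0.896 to 21.7 ± 1.25 CPM, 2.31-fold, or 1.21 on the log2 scale (SE 0.07, adjusted p = 4.14e-22, edgeR). HOXD9, its next neighbour, had 161, 157 and 183 counts in GFP and 161, 143 and 145 in PGC1A, or 5.74, 4.74 and 5.14 CPM against 6.02, 5.43 and 5.68 CPM. The groups overlapped, and the log2 fold change of 0.14 (SE 0.10, adjusted p = 0.177) turned to −0.19 when libraries were scaled by total counts (adjusted p = 0.0731). HOXD9 therefore stood between a neighbour that rose 39.5-fold and one that rose 2.31-fold without passing a test itself.

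HOXD4, a hindbrain and neck gene, had 19, 33 and 38 counts in GFP and 47, 50 and 44 in PGC1A, and rose from 0.913 ± 0.208 to 1.79 ± 0.093 CPM, a log2 change of 0.95 (SE 0.20, adjusted p = 2.56e-05, edgeR). HOXD3 had 3, 10 and 12 counts in GFP and 12, 14 and 13 in PGC1A (0.93, SE 0.37, adjusted p = 0.0192). By CPM the groups did not overlap for either gene. The HOXD3 call was lost with total counts (adjusted p = 0.124), with DESeq2 (0.14), against a 1.5-fold change (0.126) and without GFP replicate 1 (0.129) or PGC1A replicate 2 (0.0589). Of the exon bases of HOXD4 and HOXD3, 80.5% and 62.2% are shared with another gene of the same strand. HOXD1, which in the mouse acts in pain-sensing neurons, had 0, 2 and 2 counts in GFP and 0, 0 and 1 in PGC1A, which overlap.

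**Figure D3:**
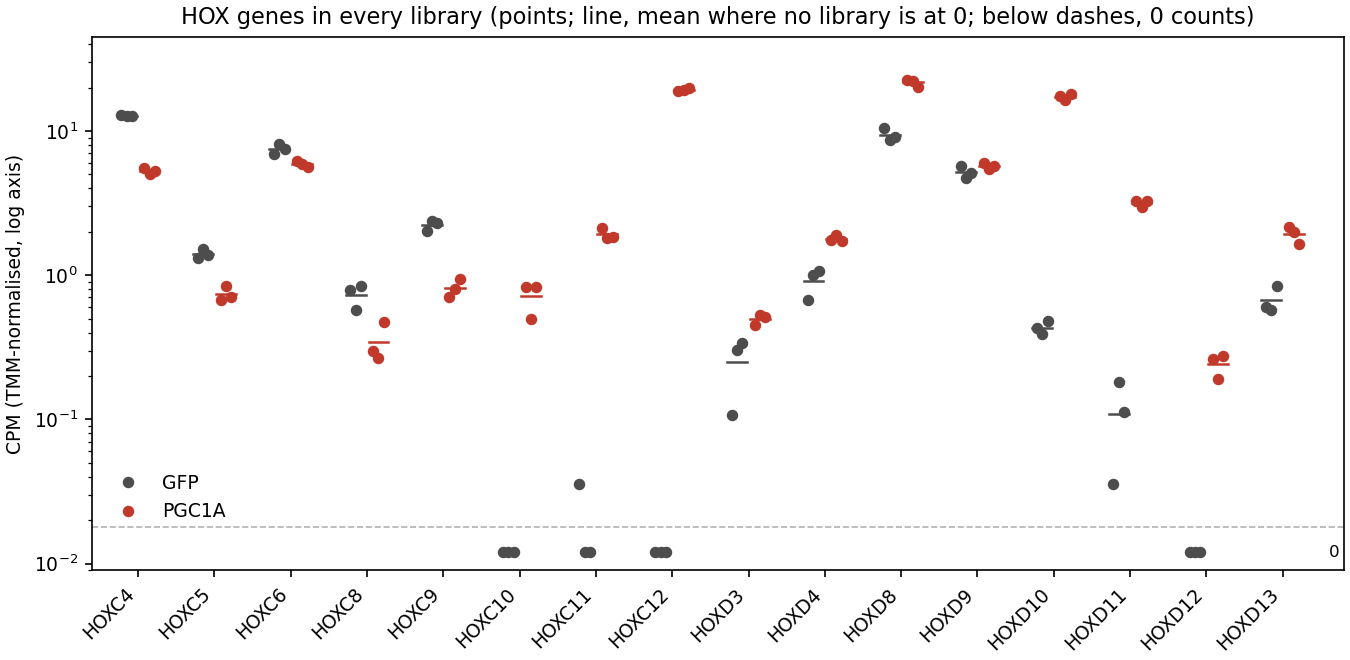
TMM-normalised CPM of the 15 tested HOX genes and HOXD12 in every library (points, log axis; line, mean where no library is at 0; points below the dashed line, 0 counts). PGC1A points lie below GFP points from HOXC4 to HOXC9, above them from HOXC10 to HOXC12 and in HOXD genes other than HOXD9, where they mix.

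**Figure D4:**
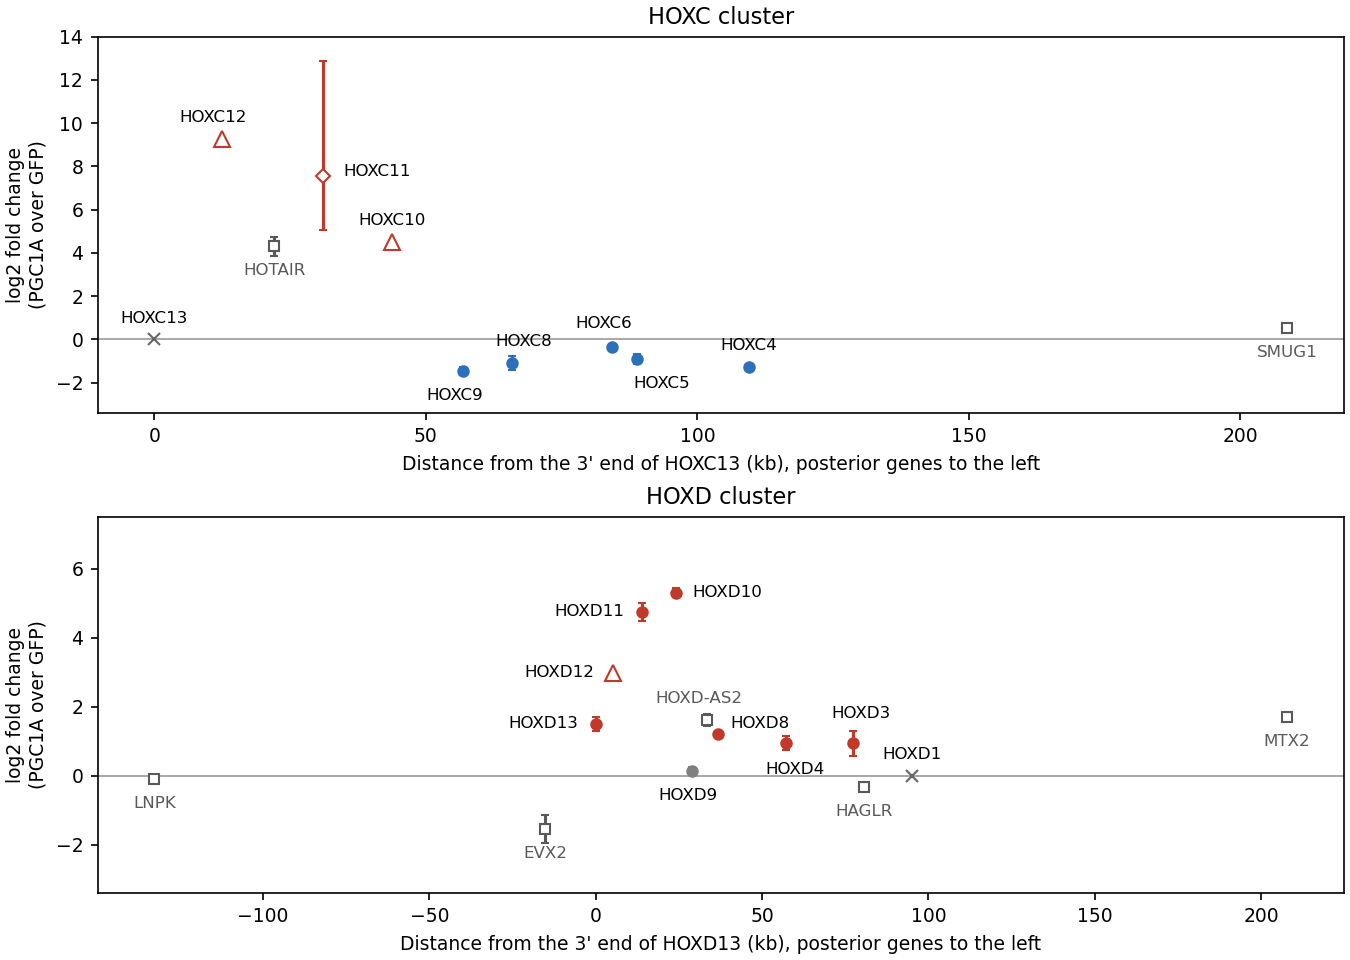
Log2 fold change (PGC1A over GFP) along HOXC and HOXD against distance in kb from the 3′ end of the group 13 gene, with members placed by their 3′ ends and other genes (squares) by their midpoints. Filled circles carry the SE derived from the F value of the test, red higher, blue lower and grey not passed. The diamond is the ratio of HOXC11 with its 95% counting interval. Triangles are lower bounds for genes with no GFP count, and crosses at 0 mark untested genes. In HOXC the sign turns between HOXC10 and HOXC9; in HOXD the highest point is HOXD10 at 5.30.

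HOXA and HOXB stayed close to silence. HOXA, on the minus strand of chromosome 7 from 27092993 to 27200106, summed to 6 counts in GFP and 25 in PGC1A. HOXB, on the minus strand of chromosome 17 from 48528526 to 48729178, summed to 2 and 3. HOXA10, a gene of the uterus and lower spine, had the highest HOXA counts in PGC1A, with 1, 0 and 1 in GFP and 7, 4 and 3 in PGC1A, a ratio of 8.62 with a 95% counting interval of 1.98 to 78.2. It was untested in the main fit and passed without the filter (adjusted p = 0.00434, edgeR) and with DESeq2 (adjusted p = 0.0444). HOXA13 had 1, 1 and 1 counts in GFP and 3, 0 and 1 in PGC1A, which overlap, and no other HOXA or HOXB gene had more than 3 counts over a group. Of these 21 genes, 4 in HOXA and 7 in HOXB had no count at all, and a count of 0 over a group allows a mean of up to 0.031 CPM in GFP or 0.0382 CPM in PGC1A (3 counts).

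Per kb of exon the order of levels changed between the groups. In GFP it ran from HOXC4 (4.68 ± 0.0239 CPM per kb, SD, n = 3) through HOXD8 (3.59 ± 0.341), HOXD9 (2.78 ± 0.269) and HOXC6 (2.13 ± 0.169) to HOXC9 (1.33 ± 0.11). In PGC1A it ran from HOXD8 (8.26 ± 0.474 CPM per kb) through HOXD10 (6.43 ± 0.279), HOXC12 (5.77 ± 0.127), HOXD9 (3.05 ± 0.157) and HOXC4 (1.94 ± 0.0882) to HOXC6 (1.67 ± 0.0794) and HOXD11 (1.5 ± 0.0793). The ranges of mean ± SD did not meet for neighbours in either order. The same counts were also divided by only the exon bases that no other gene shares on the same strand. HOXD4 then came to 3.20 CPM per kb in GFP and 6.28 in PGC1A in place of 0.624 and 1.23. HOXC5 came to 1.94 in GFP and 1.02 in PGC1A in place of 0.776 and 0.409, above HOXC9 at 1.39 and 0.508. Reads on shared bases may be among the counts, so these values are upper limits. The places of these genes in the order depend on how shared bases are treated.

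Promoter sequences came from RefSeq (GRCh38.p14), which had windows from 250 bases before to 50 bases after the start for 20 of the 39 members. The sequences of HOXD10 and HOXD8, which rose, and HOXC4, which fell, are shown since these genes and HOXC12 had the largest changes at a level of at least 5 CPM, with capitals for each CpG, the dinucleotide that is dense in polycomb-bound HOX promoters. They are HOXD10 at chr2:176116528-176116827, HOXD8 at chr2:176129455-176129754 and HOXC4 at chr12:54016638-54016937, all on the plus strand and 5′ to 3′. The HOXC4 window is also listed for HOXC5.
HOXD10: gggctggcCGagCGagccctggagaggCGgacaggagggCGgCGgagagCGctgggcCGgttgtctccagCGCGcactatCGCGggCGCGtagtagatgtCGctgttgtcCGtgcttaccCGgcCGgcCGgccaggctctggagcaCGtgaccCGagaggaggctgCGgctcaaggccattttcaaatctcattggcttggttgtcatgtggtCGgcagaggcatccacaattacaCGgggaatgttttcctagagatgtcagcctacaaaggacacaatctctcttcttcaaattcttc
HOXD8: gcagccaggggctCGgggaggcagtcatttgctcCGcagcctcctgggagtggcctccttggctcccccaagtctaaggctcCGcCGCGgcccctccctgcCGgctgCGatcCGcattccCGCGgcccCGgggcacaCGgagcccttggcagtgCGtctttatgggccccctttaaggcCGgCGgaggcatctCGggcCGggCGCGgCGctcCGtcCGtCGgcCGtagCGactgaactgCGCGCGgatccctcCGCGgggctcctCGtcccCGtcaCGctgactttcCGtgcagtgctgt
HOXC4: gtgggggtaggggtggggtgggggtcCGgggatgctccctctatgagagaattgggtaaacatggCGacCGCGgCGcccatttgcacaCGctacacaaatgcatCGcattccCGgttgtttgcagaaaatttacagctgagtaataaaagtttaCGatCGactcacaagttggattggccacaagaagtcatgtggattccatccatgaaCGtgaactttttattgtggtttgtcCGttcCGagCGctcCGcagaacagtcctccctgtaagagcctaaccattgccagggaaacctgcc

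HOXD10 held 23 CpGs at 60.0% GC, HOXD8 34 at 71.7% and HOXC4 15 at 51.7%. The median over 34796 promoter windows was 14 CpGs at 58.7% GC. The ratio of observed to expected CpGs was 0.86, 0.89 and 0.75 against a median of 0.58, so all 3 windows were rich in CpG for their base content whichever way the gene moved.

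Motifs were searched on both strands of 26 HOX windows and all 34796 windows. Of the 26, 16 belong to the nearly silent HOXA genes, 7 of them to HOXA3, and 1 to HOXB1. HOXD has 8 and HOXC 1, shared by HOXC4 and HOXC5, so HOXC10, HOXC11, HOXC12 and HOXD9 are not covered by the counts that follow. The site of estrogen-related receptors, partners of PGC-1a, written TNAAGGTCA, stood in 0 HOX windows and 0.948% of all, and the shorter AGGTCA that lies within it in 0 and 13.8%. The NRF1 core GCATGCGC stood in 0 HOX windows and 2.99% of all, and the ETS and GABP site CCGGAAG in 0 and 10.2%. The PBX-HOX site TGATTNAT stood in 2 HOX windows, HOXD11 and HOXA2, and 2.82% of all. The homeodomain core TAATTA was in 2, HOXD11 and HOXD3, and 4.86% of all, and TATAAA in 5 and 11.6%. A match is only a match of letters in these windows.

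Other transcripts inside the clusters moved as well. HOTAIR, a long noncoding RNA read from the opposite strand between HOXC12 and HOXC11, whose start it overlaps, had 1, 4 and 0 counts in GFP and 28, 26 and 33 in PGC1A (log2 fold change 4.31, SE 0.44, adjusted p = 1.92e-12, edgeR). HOXC-AS2, an RNA near HOXC9 and HOXC10, had no GFP count and 4, 4 and 5 counts in PGC1A, at least 5.34-fold higher. HOXD-AS2, an antisense RNA over the HOXD9 and HOXD8 region, had 25, 30 and 35 counts in GFP and 85, 67 and 72 in PGC1A (1.61, SE 0.17, adjusted p = 6.34e-12). For each of them the groups lay apart. The SE of HOTAIR was derived from the F value, rests on few GFP counts and can be too small.

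Of the 6 other transcripts tested inside HOXC and HOXD, 4 were higher and 2 lower, beside 40.9% and 42.1% of all genes tested. AC012531.1, a noncoding RNA in the stretch of HOXC4 and HOXC6, had 24, 49 and 48 counts in GFP and 7, 10 and 16 in PGC1A, without overlap (log2 fold change −1.56, SE 0.28, adjusted p = 2.46e-06, edgeR). HAGLR, an antisense RNA over the stretch from HOXD3 to HOXD1, was lower too, with 170, 226 and 223 counts in GFP and 136, 126 and 140 in PGC1A (log2 fold change −0.32, SE 0.10, adjusted p = 0.00208, edgeR). HAGLR did not pass with DESeq2 (adjusted p = 0.0807). Beside HOTAIR and HOXD-AS2, the rows of MIR10B, a microRNA hairpin, and AC009336.2 were higher. Their log2 fold changes were 1.33 and 0.82 (SE 0.30 and 0.29, adjusted p = 7.42e-05 and 0.00795, edgeR). Both lie in the stretch and on the strand of HOXD3 and HOXD4, so reads of those genes may be among their counts. The same holds for AC012531.1 with HOXC4 and HOXC6. The list of HOX-cluster RNAs held 21 names, of which 20 were found, 3 were tested and 6 had no count in any library. The library kit keeps strand, but the use of strand in counting is not known, so reads of a gene and its antisense partner may have been mixed.

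The rise did not run evenly into the flanks, where the 4 protein-coding genes tested within 100 kb of HOXC or HOXD were looked up after the HOX values had been seen. EVX2, a homeobox gene 8.98 kb beyond HOXD13, had 13, 13 and 18 counts in GFP and 4, 5 and 3 in PGC1A, a log2 change of −1.55 (SE 0.42, adjusted p = 8.07e-04, edgeR). MTX2, a mitochondrial import gene 78.5 kb beyond HOXD1, rose from 52.4 ± 0.431 to 171 ± 5.12 CPM, a log2 change of 1.71 (SE 0.03, adjusted p = 1.12e-42). LNPK, 90.1 kb beyond HOXD13 on the same side as EVX2, was at −0.10 (SE 0.04, adjusted p = 0.0185). SMUG1, 65.2 kb beyond HOXC4, rose by 0.52 (SE 0.04, adjusted p = 1.13e-12). The noncoding rows tested on the side of SMUG1 were all lower. FLJ12825, LINC02381, AC023794.5 and SMUG1-AS1 were at −0.61, −0.13, −1.92 and −1.55 on the log2 scale.

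Most partners of HOX proteins fell. Of 9 TALE cofactor genes, 8 fell and 1 rose, beside 42.1% and 40.9% of all genes tested. Their median log2 change was −0.90, beside −0.03 over all genes tested. MEIS3 fell from 64.7 ± 0.389 to 26.1 ± 0.928 CPM (−1.31), PBX2 from 68.2 ± 0.561 to 29.6 ± 1.38 (−1.21) and MEIS1 from 41.6 ± 1.15 to 19.3 ± 0.702 (−1.11). PKNOX2, at 0.351 CPM in GFP and 1.11 in PGC1A, rose by 1.64 (adjusted p = 6.65e-07, edgeR). The counts of 8 and 1 were the same under each scaling tried.

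Genes of the polycomb complexes, which silence HOX clusters, moved both ways. Of 14 genes of PRC2, the complex that methylates histone H3, 7 were higher and 7 lower (median 0.02), against 5 and 7 with total counts. The shares over all genes tested were 40.9% higher and 42.1% lower. EZH2, its catalytic subunit, fell from 134 ± 2.78 to 84.5 ± 1.83 CPM (log2 fold change −0.66), and the accessory genes PHF19 and LCORL were at −0.78 and −0.74. The core genes EED and RBBP7 rose by 0.99 and 1.00, and PHF1, an accessory gene, was at 0.62 (glmTreat adjusted p = 0.108).

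Of 21 genes of PRC1, which reads that mark and ubiquitinates histone H2A, 7 were higher and 10 lower (median −0.12). These counts stand beside 40.9% and 42.1% of all genes tested. With total counts they were 4 and 17. CBX2, one of its reader subunits, fell from 90.2 ± 1.38 to 22.3 ± 0.879 CPM, a log2 change of −2.02 (SE 0.04, adjusted p = 3.65e-41, edgeR), and the readers CBX6 and CBX8 fell by 1.31 and 1.15. CBX7, another reader, rose by 1.17 but stayed at 2.70 CPM. PCGF5, a subunit of variant PRC1, rose from 22.8 ± 1.49 to 104 ± 1.15 CPM (2.19), and YAF2, which belongs to variant PRC1 too, rose by 1.47.

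Of 17 trithorax-group and related genes, which keep HOX genes active, 5 were higher and 9 lower (median −0.16), against 2 and 14 with total counts. The 5 and 9 stand beside 40.9% and 42.1% of all genes tested. The methyltransferase genes KMT2A and KMT2C fell (both −0.66 on the log2 scale), and the demethylase gene KDM6A was at −0.60 (glmTreat adjusted p = 0.301). RBBP5 and DOT1L were at 0.57 and 0.54 (glmTreat adjusted p = 0.729 and 1). KMT2B was at 0.26 with TMM scaling and at −0.07 with total counts (adjusted p = 0.0531).

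Of 15 retinoic acid genes tested, 9 rose and 6 fell (median 0.62), against 7 and 6 with total counts. The 9 and 6 stand beside 40.9% and 42.1% of all genes tested. DHRS3, a retinal reductase that retinoic acid is known to induce, rose from 0.575 ± 0.194 to 7.03 ± 0.247 CPM, a log2 change of 3.57 (SE 0.16, adjusted p = 2.72e-26, edgeR), and the receptor gene RARB rose by 1.34 to 5.94 CPM. ALDH1A3, a synthesis enzyme, rose by 0.73, while the synthesis enzyme ALDH1A2 fell by 2.28 to 0.434 CPM. CRABP2, a retinoic acid carrier, fell from 46.9 ± 1.82 to 8.91 ± 0.677 CPM (−2.39), and the receptor partner RXRA fell by 2.17.

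Of 14 inducers and other upstream factors of HOX genes, 7 were tested, with 2 higher and 4 lower (median −0.12). The shares of all genes tested were 40.9% and 42.1%. With total counts 0 were higher and 4 lower. GDF11, a ligand that sets the trunk to tail transition, fell from 91.0 ± 2.46 to 40.0 ± 1.71 CPM (log2 fold change −1.19), and EGR2, a hindbrain factor, fell by 1.87 to 0.318 CPM. CTCF, the boundary factor, was at −0.35, and GMNN at 0.40. Neither of them cleared 1.5-fold in glmTreat (adjusted p = 1), and with total counts GMNN lost its call (adjusted p = 0.167). CDX4 and FGF4 had no count, and CDX1, CDX2, FGF8, WNT3A and TBXT had no more than 9 over either group.

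**Figure D5:**
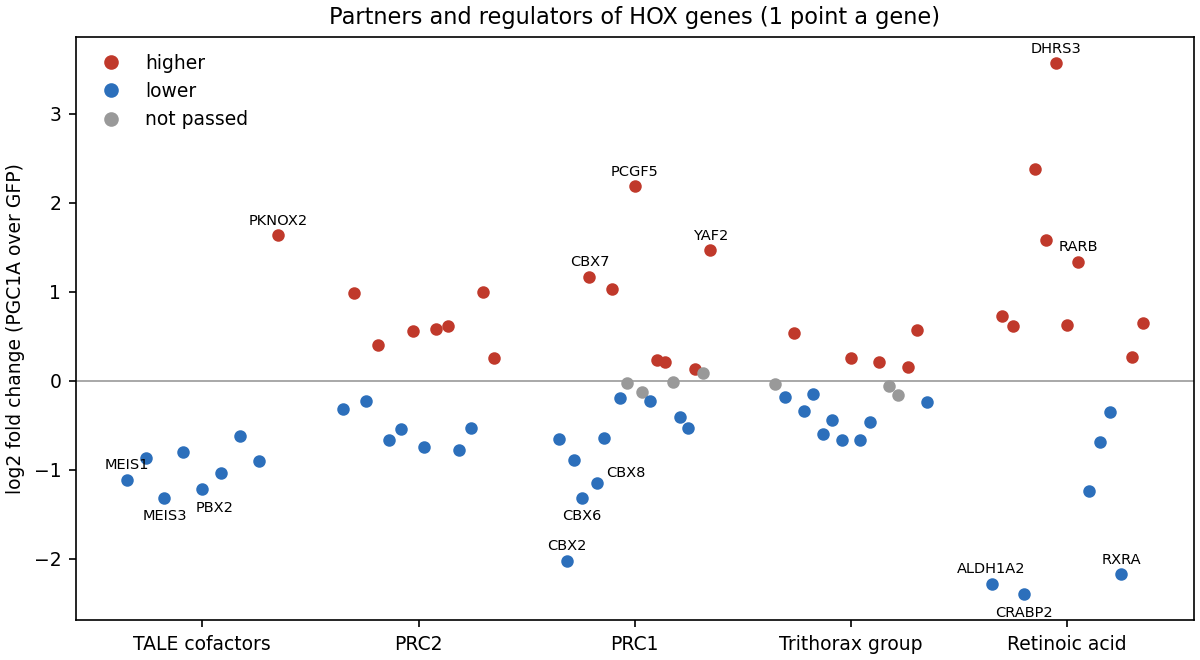
Log2 fold change (PGC1A over GFP) of each tested gene in 5 lists of HOX partners and regulators (x axis), red higher, blue lower and grey not passed at an adjusted p of 0.05. Among TALE cofactors 8 of 9 points lie below 0, while the other lists lie on both sides.

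Markers of cell states moved with these changes. All noradrenergic genes that passed were lower (8 of 9 tested, median −0.48), and their summed level was 1220 to 1237 CPM in GFP and 653 to 670 in PGC1A, with DBH at 13.2 CPM and GATA2 at 60.0 in PGC1A. Of 12 mesenchymal-type markers, 11 were lower and 0 higher (median −1.20), with a summed level of 4594 to 4666 CPM in GFP and 2179 to 2204 in PGC1A. The matrix genes DCN, LUM and COL1A2 were at −3.70, −3.17 and −2.70 on the log2 scale. Of 6 Schwann cell markers 4 were tested, 2 higher and 2 lower, with a summed level of 7.97 to 8.87 CPM in GFP and 2.43 to 3.18 in PGC1A, and SOX10 had no count in any library. Over all genes tested, 42.1% were lower and 40.9% higher. The part of these markers in the HOX changes was not tested.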

How the data were processed

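Poly(A) RNA of 3 GFP and 3 PGC1A libraries of SH-SY5Y cells was sequenced. The authors deposited raw read counts per gene in 1 table. Per the submitters' processing notes the build was GRCh38, and the tools listed include HTSeq 0.10.0 and STAR 2.6.0c. How the counting treated strand and overlapping genes is not given in the sources used here. The 5 summary lines (28.8% to 31.0% of reads) were left out. Of 58096 gene rows, 57492 matched GENCODE 29, the source of coordinates (from 1) and exon lengths. A further HOXC5 row, a processed transcript, was not a member.

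The test was edgeR 4.0.16 (R 4.3.3): TMM factors, minimum count 10 (total 15), robust glmQLFit and a two-sided glmQLFTest. It was checked on simulated data with 200 changed genes, which does not test TMM scaling where most genes differ. CPM are TMM-normalised. Fold bounds against groups with no count use 3 counts over the group. Intervals cover counting error only. Bounds allow for it only in the group with no count and take the count of the other group as it stands. The alternatives were other scalings and filters, DESeq2 1.42.0, glmTreat against 1.5-fold, a replicate block and each library left out. HOX genes and lists were chosen with earlier results of these data known. Named from the lists were up to 3 rises and 3 falls, largest first, past the threshold at 1 CPM or more in either group; some genes so chosen are not reported here.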

Additional observations from a re-analysis of the deposited data

How the results depend on the processing

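The counts of HOX genes, 9 higher and 5 lower, were 9 and 5 with DESeq2-type size factors, upper-quartile factors and the replicate block, 8 and 5 with total counts, 11 and 5 without the filter (HOXD12 and HOXA10 added), 7 and 4 with a filter of 1 CPM in 3 libraries (HOXC8, HOXC10 and HOXD3 untested), 10 and 4 with DESeq2, and 8 and 4 against a 1.5-fold change. Leaving out each library gave 8 to 9 higher and 5 lower. Over all genes, 7909 higher and 8148 lower became 4766 and 4475 against a 1.5-fold change, 5778 and 10743 with total counts and 7047 and 9234 with upper-quartile factors; leaving out each library gave 7867 to 7950 higher and 8032 to 8181 lower. With total counts the median over genes shifted by −0.329 on the log2 scale, HOXD9 turned to −0.19 and KMT2B to −0.07; with upper-quartile factors the shift was −0.128. Same-numbered libraries did not deviate together (correlations −0.011, 0.006 and 0.011), which cannot show whether they were prepared together. The replicate block gave 7914 higher and 8157 lower genes. Replicates differed by more than counting noise (chi-square per degree of freedom 1.25 to 2.83). HOXC8, HOXC10, HOXD3, HOXD12 and HOXA10 rest on few counts.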

Other observations

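Homeobox genes outside the clusters but related to them gave little signal. Of 18 such genes 5 were tested, with 2 higher, 1 lower (EVX2) and a median log2 fold change of 0.17, which was −0.15 with total counts (2 higher and 2 lower). DLX6, a forebrain and branchial arch gene, rose from 8.20 ± 0.226 to 11.8 ± 0.495 CPM (SD, n = 3; log2 fold change 0.53, SE 0.07, adjusted p = 1.06e-08, edgeR), but did not pass against a 1.5-fold change (glmTreat adjusted p = 0.84). GSX1 and MEOX2 had no count in any library.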
